A study of Saccharomyces cerevisiae with 2 samples.

Results

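The genes described here encode subunits of the mitochondrial respiratory chain and of the ATP synthase of the budding yeast Saccharomyces cerevisiae. They were chosen by name, as 37 of the 6207 gene features of the array: 9 subunits of cytochrome oxidase, 9 of the bc1 complex, 11 of the ATP synthase, both isoforms of cytochrome c, 4 subunits of succinate dehydrogenase and 2 NADH dehydrogenases. The choice used no measured value of the genes, but it was made with earlier results of these arrays in view. All 37 had a feature on the array, 28 of them had a ratio on both arrays, 2 had one on array 2 alone, and 7 had none.

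The tested cells were a mid2 mutant exposed to Congo Red, and they were set against the untreated cells of the same mutant. The background of both was BY4741, a haploid laboratory strain with several auxotrophies, and both carried the mutation in MID2, the gene of a plasma membrane sensor of cell wall stress; the labels do not say which kind of mutation it is. Because it is on both sides of each ratio, the ratio of MID2 itself checks nothing. A culture in YEPD, a rich glucose medium, at 24 °C was split, 30 µg/ml of Congo Red, a dye that binds wall polymers, was added to the treated share, and cells were collected at 4 h. RNA of both shares was hybridised to the same array, with treated RNA in Cy3 on array 1 and in Cy5 on array 2. The labels do not say whether these 2 arrays hold 1 culture or 2, so the spread between them may be technical. No wild-type array was analysed here, and the ratios cannot show what the mutation does.

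In mitochondria, electrons enter the chain from NADH and succinate, pass through ubiquinone to the bc1 complex and through cytochrome c to cytochrome oxidase, which reduces oxygen. The proton gradient built on the way drives the ATP synthase. Budding yeast has no proton-pumping NADH dehydrogenase and uses NADH dehydrogenases made of a lone polypeptide instead. In glucose medium this yeast ferments, and many genes of the chain are repressed; the Hap2/3/4/5 complex and the haem-responsive factor Hap1 activate them. The HAP1 gene of strains descended from S288C, BY4741 among them, carries a transposon insertion that weakens its product.

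Values are log2 ratios as deposited, and a positive ratio is read as likely higher with Congo Red. This reading is not settled: the labels give the dyes but not the order of the channels, and its basis is only that they name treated before untreated cells. If both arrays ran the other way, every sign below would be reversed. That the arrays run the same way is taken from the columns of the dye-swapped arrays, which correlated positively across all 2738 features with a ratio on both arrays (Pearson r = 0.48 and Spearman rho = 0.34, genes being no independent replicates); a dye effect particular to each gene would also give such a correlation. Had the ratios never been turned, the treatment would lie in the difference between the arrays, and values under that reading are called never turned below. They were computed after centring each array on its median, with the sign of array 1 turned. That takes the fixed ratio to be Cy5 over Cy3, which the labels do not settle. With Cy3 over Cy5 every never-turned sign would be reversed, and so would the order of genes or lists under that reading. The median of all features was −0.27 on array 1, −0.18 on array 2 and −0.24 in the mean, so a gene near −0.24 lies in the middle of the table. Intensities were not at hand, so a level or the distance from background cannot be given, and the 2 arrays limit the precision of every value. RNA quality was not tested.

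Most of the measured respiratory genes lay slightly to the negative side. Of the 2 genes for the large catalytic-head subunits of the ATP synthase, ATP1 lay to the positive side on both arrays. ATP2 lay far to that side on array 1 alone. Of the 28 members with a ratio on both arrays, 19 were negative on both (67.9%, against 54.5% of all features), and 3 were positive on both, or 10.7% against 15.9% of all features. Relative to the median of all features, 11 members lay below it on both arrays and 4 above it on both, against a background of 29.3% of features for below and 29.3% for above. The median member stood at −0.38, or −0.14 relative to the median of all features, with relative values of −0.061 on array 1 and −0.13 on array 2. Means ranged from −2.60 for COX7 to 1.52 for ATP2, and array 1 gave most of both.

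No member passed the test of its mean against 0. With Benjamini-Hochberg adjustment over the table and a threshold of 0.05, limma called 0 of the 28 members and 0% of the 2738 features; adjusted p of the members ran from 0.285 for ATP1 to 0.981 for COR1. At an unadjusted p under 0.05 limma took 4 members, or 14.3%, against 13.6% of all features. Of these, ATP1 was positive, 1 of 28 against 6.28% of features, and COX7, CYC1 and CYC7 were negative, 3 of 28 or 10.7% against 7.27% of features. A rule of size, with a mean of 2-fold or more and both arrays on the same side at 1.5-fold or more, took ATP1 on the positive side (1 of 28, against 4.13% of features) and COX7 and CYC7 on the negative side (2 of 28, against 2.81%). These shares rest on 1 to 4 genes, and the positive ones lie below their background. Centring each array took CYC7 out of the rule, at −0.87. It turned the split of all features from 113 positive and 77 negative to 162 and 35. Scaling the arrays as well gave 167 and 40 and also left CYC7 out. Quantile normalization kept CYC7, at −1.47, with a split of 121 and 101. With centring alone, limma took 3 of the 28 members at an unadjusted p under 0.05, against 303 of the 2738 features. With the ratios read as never turned, 0 members met the rule, against 0.584% of features, so this count says nothing of the members. Limits of 1.5-fold in the mean and 1.2-fold on each array took 6 members, or 21.4%, against 20.7% of features. Limits of 3-fold and 2-fold took 0 members against 2.37% of features. A 2-fold limit on array 1 alone took COX7, ATP1, ATP2 and ATP15, 4 of 28 or 14.3% against 21.1% of features, and on array 2 alone QCR6 and CYC7, 2 of 28 against 5.66% of features. Under these limits the members' shares lay near or below those of the table, apart from array 2, where the difference is below 1 gene.

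**Figure D1:**
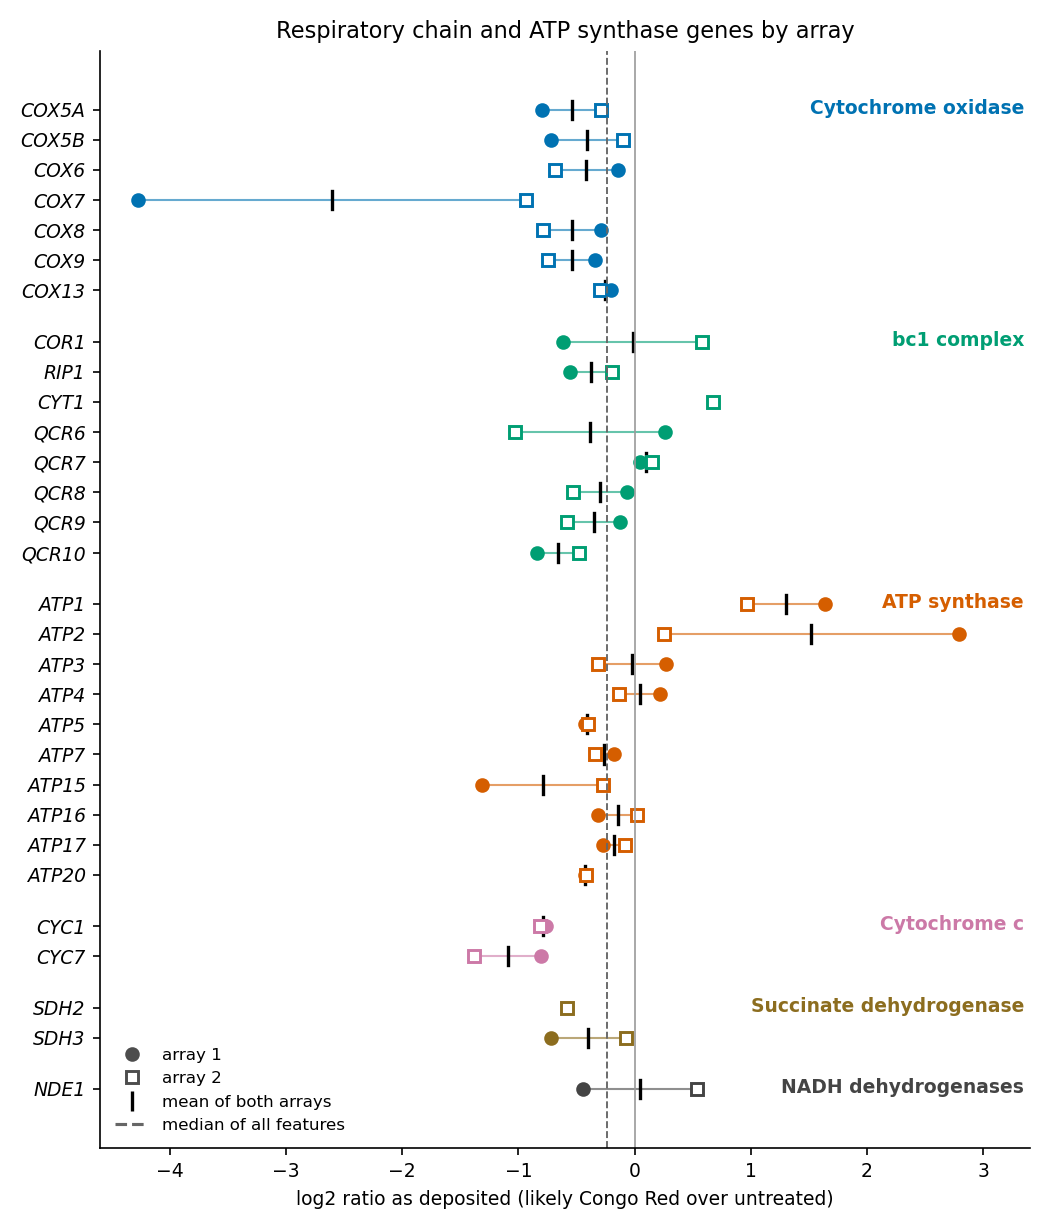
Log2 ratio as deposited (x axis) of the 30 members with a value, by complex; filled circles are array 1, open squares array 2, black ticks their mean, and the dashed line the median of all features (−0.24). ATP1 and ATP2 on array 1 sit far to the right of the other members. On array 2 ATP1 is the member furthest right, at 0.97, and ATP2 lies among the others. COX7 sits far to the left on array 1, and both cytochrome c genes lie left of the dashed line on both arrays.

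At the entry of the chain, few genes had ratios. NDE1 (YMR145C), the NADH dehydrogenase that faces the space between the membranes, had −0.44 on array 1 and 0.54 on array 2, with a mean of 0.05 ± 0.69 (SD, n = 2; limma adjusted p = 0.944). The arrays pointed to opposite sides, and the spread was far wider than the mean. NDI1 (YML120C), its counterpart facing the matrix, had no ratio on either array. Succinate dehydrogenase, which also belongs to the tricarboxylic acid cycle, was covered by 2 of its 4 genes. SDH3 (YKL141W), a membrane anchor subunit, had −0.72 on array 1 and −0.08 on array 2, a mean of −0.40 ± 0.45 (SD, n = 2; limma adjusted p = 0.535). SDH2 (YLL041C), the iron-sulphur subunit, had −0.58 on array 2 alone. The flavoprotein gene SDH1 (YKL148C) and the second anchor gene SDH4 (YDR178W) had no ratio, so no median of this complex can be given. The ratios of SDH2 and SDH3 were all negative, but those of SDH3 differed between arrays by more than the mean itself. Never turned, SDH3 had 0.28 and NDE1 0.45.

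In the bc1 complex, which passes electrons from ubiquinol to cytochrome c, the genes scattered around the median of all features. COR1 (YBL045C), a core protein with no redox centre, had −0.61 on array 1 and 0.58 on array 2, and its mean of −0.02 ± 0.84 (SD, n = 2; limma adjusted p = 0.981) says nothing of a direction; it became 0.21 after centring and was 0.56 never turned. RIP1 (YEL024W), the Rieske iron-sulphur protein, had −0.55 on array 1 and −0.20 on array 2. CYT1 (YOR065W), cytochrome c1, had a ratio on array 2 alone, 0.67. That was the highest ratio of the complex on array 2, but no replicate stands beside it. The other core gene, QCR2 (YPR191W), had no ratio.

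Among the small bc1 subunits, which surround the catalytic core, QCR7 (YDR529C) had the highest mean and QCR10 (YHR001W-A) the lowest. On array 1 QCR6 was above QCR7, and on array 2 QCR6, QCR8 and QCR9 were below QCR10. QCR7 had 0.04 on array 1 and 0.15 on array 2, a mean of 0.10 ± 0.08 (SD, n = 2; limma adjusted p = 0.830), which is 0.34 above the median of all features. QCR10 had −0.84 on array 1 and −0.48 on array 2, a mean of −0.66 ± 0.25 (SD, n = 2; limma adjusted p = 0.368). On both arrays QCR10 lay below the middle of the table and QCR7 above it. QCR8 (YJL166W) had −0.06 on array 1 and −0.53 on array 2, and QCR9 (YGR183C) had −0.13 on array 1 and −0.58 on array 2. QCR6 (YFR033C), the acidic subunit, had 0.26 on array 1 and −1.03 on array 2, a mean of −0.39 ± 0.91 (SD, n = 2; limma adjusted p = 0.615). QCR6, QCR8 and QCR9 were thus each lower on array 2, whereas COR1, RIP1, QCR7 and QCR10 were higher there. Never turned, QCR6 had −0.68, QCR7 0.015 and QCR10 0.14.

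Both genes of cytochrome c, the soluble carrier between the bc1 complex and cytochrome oxidase, lay on the negative side on both arrays. CYC1 (YJR048W), the main isoform of aerated cells, had −0.77 on array 1 and −0.81 on array 2. Its mean of −0.79 ± 0.03 (SD, n = 2) is a ratio 1.73-fold to the negative side, with a limma interval at 95% from −1.46 to −0.12 and adjusted p = 0.357. CYC7 (YEL039C), the isoform favoured at low oxygen, had −0.80 on array 1 and −1.38 on array 2, a mean of −1.09 ± 0.41 (SD, n = 2), or 2.13-fold to the negative side. Its limma interval ran from −1.85 to −0.33, with adjusted p = 0.330. Relative to the median of all features, CYC1 lay at −0.55 and CYC7 at −0.85. The interval of CYC1 includes that median of −0.24, and that of CYC7 does not. CYC1 minus CYC7 was 0.04 on array 1 and 0.57 on array 2, a mean of 0.30 ± 0.37 (SD, n = 2), so a difference between the isoforms did not exceed the spread between arrays. The isoforms are similar in sequence, and cross-hybridisation between them was not tested. With the ratios read as never turned, CYC1 had −0.064 and CYC7 −0.33.

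Every measured nuclear gene of cytochrome oxidase, the terminal enzyme of the chain, had negative ratios on both arrays, 7 of 7, where the background over all features was 54.5%. Measured from the median of all features the picture is weaker: 4 of the 7 lay below it on both arrays and 3 lay on different sides. These genes encode the subunits around the catalytic core, whose own genes lie in the mitochondrial genome and had no feature in the table. COX5A (YNL052W) and COX5B (YIL111W) encode exchangeable isoforms of a regulatory subunit, for aerated and for low-oxygen cells. COX5A had −0.80 on array 1 and −0.29 on array 2, a mean of −0.54 ± 0.36 (SD, n = 2; limma adjusted p = 0.440). COX5B had −0.72 on array 1 and −0.10 on array 2, a mean of −0.41 ± 0.44 (SD, n = 2; limma adjusted p = 0.521). COX5A minus COX5B was −0.13 ± 0.08 (SD, n = 2), so the isoform genes had nearly the same ratio; here too their sequences are similar, and cross-hybridisation was not tested. Never turned, COX5A had 0.21 and COX5B 0.27, both on the other side of 0.

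COX7 (YMR256C), a small membrane subunit, stood apart from the rest of the enzyme. It had −4.27 on array 1, a ratio of 0.0518, and −0.94 on array 2, a ratio of 0.522. The mean of −2.60 ± 2.36 (SD, n = 2) placed it as the 9th lowest of the 2738 features, with a limma interval from −4.80 to −0.41 and adjusted p = 0.357. Both arrays were negative, but array 1 decided the size. On array 2 alone COX7 was less than 2-fold from 1, and with the ratios read as never turned it stood at 1.63.

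The remaining oxidase genes lay close together. COX6 (YHR051W) had −0.14 on array 1 and −0.68 on array 2. COX8 (YLR395C) had −0.29 on array 1 and −0.79 on array 2, and COX9 (YDL067C) had −0.34 on array 1 and −0.74 on array 2. COX6, COX8 and COX9 were lower on array 2 than on array 1, the opposite of COX5A and COX5B. COX13 (YGL191W), a peripheral subunit, had −0.20 on array 1 and −0.30 on array 2. Its mean of −0.25 ± 0.07 (SD, n = 2; limma adjusted p = 0.609) was the highest of the enzyme and lay next to the median of all features. COX6 was higher than COX13 on array 1, and COX5A and COX5B were higher on array 2. COX4 (YGL187C) and COX12 (YLR038C) had no ratio. Without COX7, set aside after its values were seen, the 6 others spanned −0.54 to −0.25.

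The ATP synthase held both the highest means of the members and some of the lower ones. Its catalytic head is built of alternating alpha and beta subunits, and their genes were the only ones of the complex more than 1 log2 unit above 0 in the mean. ATP1 (YBL099W), the alpha subunit, had 1.64 on array 1 and 0.97 on array 2, ratios of 3.12 and 1.96. Its mean of 1.30 ± 0.48 (SD, n = 2) is 2.47-fold, with a limma interval from 0.51 to 2.09 and adjusted p = 0.285, and it ranked 100th from the top of the 2738 features. ATP2 (YJR121W), the beta subunit that carries the catalytic sites, had 2.79 on array 1 and 0.25 on array 2, ratios of 6.90 and 1.19. The mean of 1.52 ± 1.80 (SD, n = 2) is 2.86-fold, but the limma interval from −0.21 to 3.24 includes 0 (adjusted p = 0.387). Array 2 kept ATP2 outside the rule of size, and array 1 gave most of its mean. With the ratios read as never turned, ATP1 had −0.38 and ATP2 −1.31.

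The central stalk, which turns inside the head, was split. ATP3 (YBR039W), the gamma subunit, had 0.27 on array 1 and −0.32 on array 2. ATP16 (YDL004W), the delta subunit, had −0.32 on array 1 and 0.02 on array 2. Neither kept its sign between the arrays. ATP15 (YPL271W), the small epsilon subunit, had −1.31 on array 1 and −0.27 on array 2. Its mean of −0.79 ± 0.74 (SD, n = 2; limma adjusted p = 0.392) was the lowest of the complex, but on array 2 ATP3, ATP5, ATP7 and ATP20 were lower. Never turned, ATP15 had 0.48. The peripheral stalk holds the head still. ATP4 (YPL078C) of this stalk had 0.22 on array 1 and −0.13 on array 2. ATP5 (YDR298C), the subunit that confers oligomycin sensitivity, had −0.42 on array 1 and −0.40 on array 2, and ATP7 (YKL016C) had −0.18 on array 1 and −0.34 on array 2. ATP14 (YLR295C), of the same stalk, had no ratio.

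In the membrane part, ATP17 (YDR377W) had −0.27 on array 1 and −0.08 on array 2. ATP20 (YPR020W), a subunit of dimeric synthase, had −0.43 on array 1 and −0.42 on array 2, a mean of −0.42 ± 0.01 (SD, n = 2; limma adjusted p = 0.477). ATP5 and ATP20 had the closest arrays of the complex, and both lay 0.17 to 0.18 below the median of all features (−0.17 and −0.18 relative to it). Setting ATP1 and ATP2 aside, a grouping made after their values were seen, the other 8 genes ranged from −0.79 to 0.04 with a median of −0.22, next to the −0.24 of all features.

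**Figure D2:**
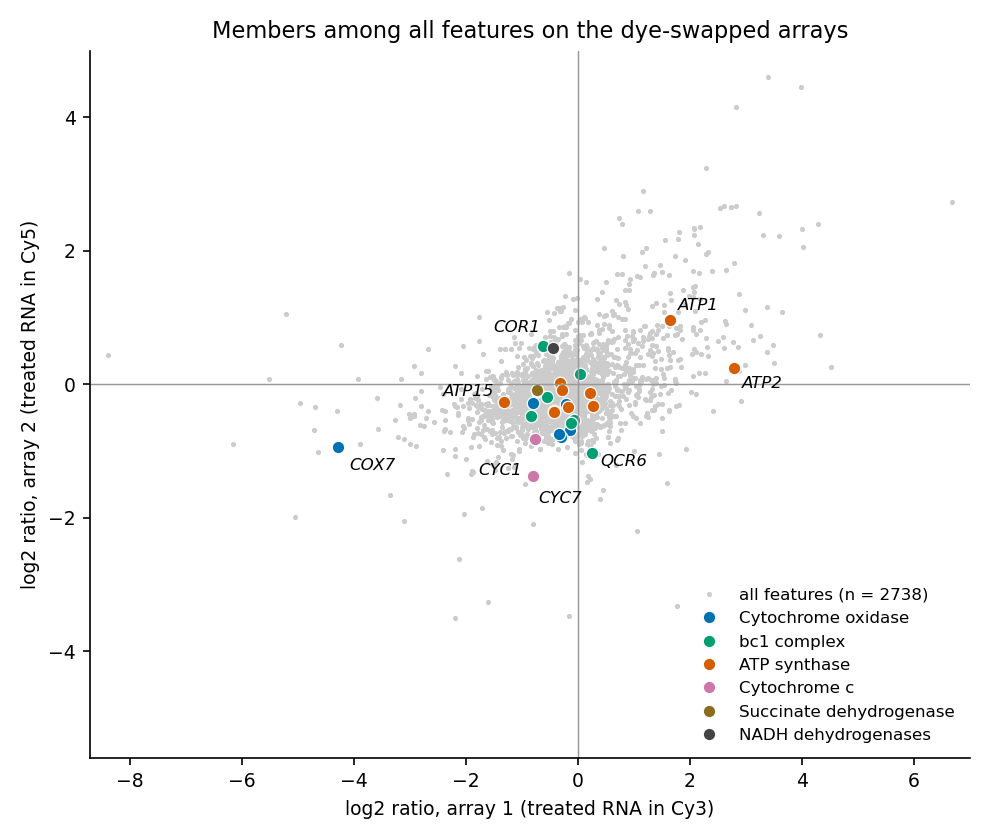
Log2 ratio of each feature on array 1 (x axis) and array 2 (y axis), grey for all 2738 features and coloured by complex for the 28 members. Most members lie in the dense centre; ATP1 lies with the features high on both arrays, ATP2 far out along array 1 alone, and COX7 far to the left.

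The medians of the 3 large complexes lay close together, and their order depended on the reading of the ratios. Relative to the median of all features, cytochrome oxidase stood at −0.30 over 7 genes, the bc1 complex at −0.11 over 7 and the ATP synthase at 0.079 over 10. Never turned, they stood at −0.11, −0.0043 and −0.098 in the same order of complexes, with the bc1 complex highest. On array 1 alone the bc1 complex was also highest, at 0.14, with cytochrome oxidase at −0.072 and the ATP synthase at 0.042. The ATP synthase median minus that of cytochrome oxidase was 0.11 on array 1 and 0.48 on array 2. The bc1 median minus that of cytochrome oxidase was 0.21 on array 1 and 0.20 on array 2, the most even of these differences. The ATP synthase minus the bc1 complex was −0.098 on array 1 and 0.28 on array 2, with no common sign. An exact two-sided sign-flip test over 2 arrays gave p = 0.5 for the first 2 differences and 1 for the last, and 0.5 is the smallest p it can give, so this design cannot bring a difference between complexes under 0.05. Across the 28 members the arrays correlated with Pearson r = 0.44 and Spearman rho = 0.20, and with 0.35 and 0.045 without COX7 and ATP2, a pair set aside after its values were seen. The genes share both arrays, and these values describe only how alike the arrays ordered them.

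The factors that assemble the complexes or translate their mitochondrial messages were covered thinly. Of the 51 such genes in the table, 18 had a ratio on both arrays, and 8 of them lay below the middle of the table on both arrays (44.4%) and 1 above it (5.56%), against 29.3% of features each way. Their median was −0.17 relative to all features, against −0.14 for the subunits, and −0.012 never turned. The subunits' median minus theirs was 0.14 on array 1 and −0.052 on array 2, with no common sign. limma called 0 of them, against 0% of all features, and 2 of the 18 had an unadjusted p under 0.05, against 13.6% of all features. The rule of size took COX23 and CBP1, both negative, 2 of 18 genes against 2.81% of features. COX23, a copper-related assembly factor of cytochrome oxidase, had −3.57 on array 1 and −0.67 on array 2, a mean of −2.12 ± 2.05 (SD, n = 2; limma adjusted p = 0.363). Like COX7 it was far lower on array 1. CBP1, needed for the mitochondrial message of cytochrome b, had −1.15 on array 1 and −1.06 on array 2, a mean of −1.11 ± 0.06 (SD, n = 2; limma adjusted p = 0.285), and its arrays differed little. Never turned, COX23 had 1.41 and CBP1 0.0028. MSS51, a translational activator of the mitochondrial COX1 message, had −5.20 on array 1 and 1.05 on array 2 and is named after its values were seen. It was the only one of the 18 factors past the limits with opposite signs, against 11 of all 2738 features.

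Of the 5 HAP regulators only HAP1 and HAP2 had ratios. HAP1 had 1.22 on array 1 and 0.08 on array 2, a mean of 0.65 ± 0.80 (SD, n = 2; limma adjusted p = 0.463), and HAP2 had 0.09 on array 1 and −0.70 on array 2, a mean of −0.30 ± 0.56 (SD, n = 2; limma adjusted p = 0.616). For both genes the arrays differed by more than the mean, and never turned HAP1 had −0.61 and HAP2 −0.44. HAP4, the limiting activating subunit, HAP3 and HAP5 had no ratio, so the regulators cannot be set beside their targets here.

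Genes of the tricarboxylic acid cycle other than succinate dehydrogenase lay above the middle of the table as deposited. The cycle, which feeds the chain, had a median 0.33 above that of all features over 8 genes. Of these, 7 lay above it on both arrays and 0 below on both, against 29.3% of features each way. Succinate dehydrogenase was counted with the chain and not in this list. Its gene SDH3 lay at −0.16 relative to all features, and SDH2 at −0.40 on array 2, its lone ratio. The rule of size took 2 of the 8, against 4.13% of features. ACO1, the aconitase gene, had a mean of 1.56 ± 0.51 (SD, n = 2; limma adjusted p = 0.213). LPD1, which encodes dihydrolipoamide dehydrogenase, had a mean of 1.31 ± 0.32 (SD, n = 2; limma adjusted p = 0.239). Both were positive on both arrays, but never turned ACO1 had −0.40 and LPD1 −0.27, and the median of the cycle was 0.022 relative to all features. The respiratory median minus that of the cycle was −0.23 on array 1 and −0.59 on array 2. Mitochondrial carriers and porin lay on the same side as the cycle, 0.57 above all features over 5 genes, with 3 above on both arrays and 0 below on both, and at 0.16 never turned. Mitochondrial ribosomal proteins lay at −0.064 over 42 genes, with medians of −0.16 on array 1 and −0.11 on array 2. Of the 42, 21 lay below all features' median on both arrays (50%) and 4 above on both (9.52%), against 29.3% each way. The respiratory median minus theirs was 0.097 on array 1 and −0.013 on array 2, with no common sign.

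The vacuolar ATPase is a proton pump built on the same rotary plan as the ATP synthase. As deposited, its median lay 0.46 above all features over 12 genes, but the size differed by array, with 0.71 on array 1 and 0.15 on array 2. Of the 12, 6 lay above all features' median on both arrays and 1 below on both, against 29.3% of features each way. The ATP synthase median minus that of the vacuolar ATPase was −0.67 on array 1 and −0.17 on array 2. Never turned, with the ratio taken as Cy5 over Cy3, the order was the opposite, with the vacuolar ATPase at −0.33 and the ATP synthase at −0.098. VMA1, the catalytic subunit that corresponds to ATP2, had 2.05 on array 1 and 1.70 on array 2, a mean of 1.88 ± 0.25 (SD, n = 2; limma adjusted p = 0.135). Its arrays were much closer to each other than those of ATP2; never turned it had −0.22. The exact sign-flip test gave p = 0.5 for the differences from the cycle and from the vacuolar ATPase, again the smallest it allows, and 1 for the mitochondrial ribosome.

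**Figure D3:**
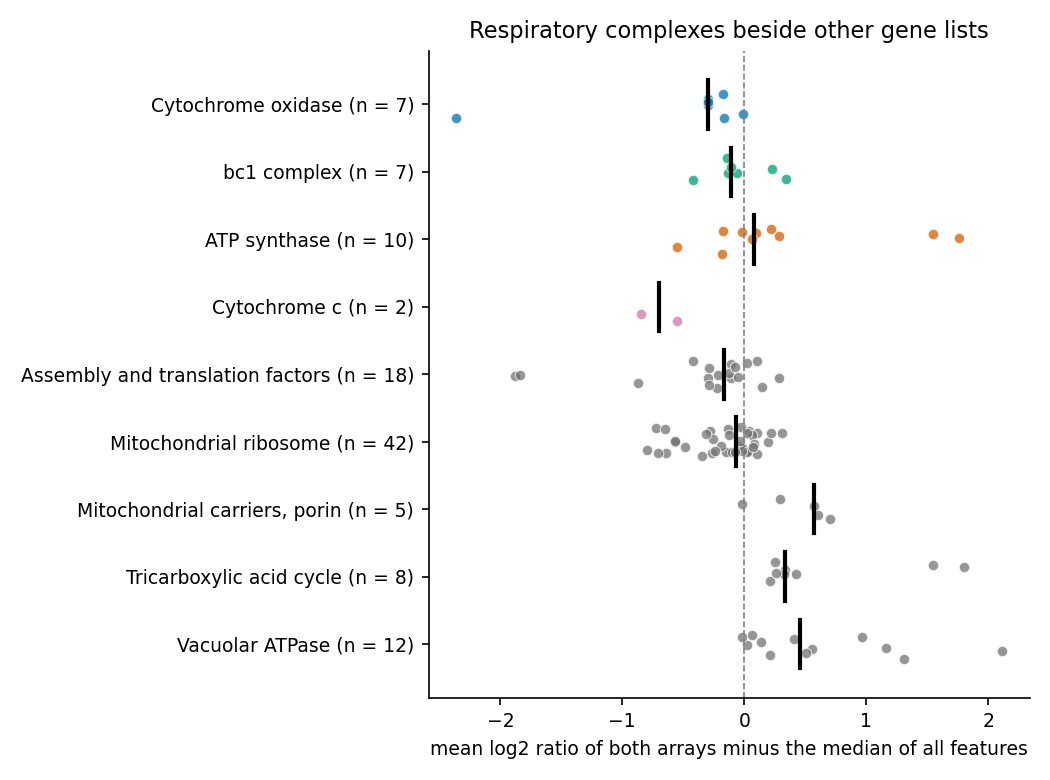
Mean log2 ratio of both arrays minus the median of all features (x axis) for each gene of the complexes and of other lists, with a black bar at each list's median and n for the genes with a ratio on both arrays. Cytochrome oxidase and cytochrome c lie left of 0, most of the ATP synthase lies near 0 with ATP1 and ATP2 at 1.54 and 1.76, and the tricarboxylic acid cycle and the vacuolar ATPase lie to the right.

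The complexes also differed in how many genes had a ratio at all. A ratio on both arrays was present for 75.7% of the 37 members, against 44.1% of all features, 35.3% of the assembly and translation factors, 61.5% of the cycle genes and 92.3% of the vacuolar ATPase genes. Within the members it was present for 10 of 11 ATP synthase genes, 7 of 9 oxidase genes, 7 of 9 bc1 genes and 1 of 4 succinate dehydrogenase genes. Why a cell of the table is empty is not given in the sources used here, so an empty cell is no measurement of a low level.

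**Figure D4:**
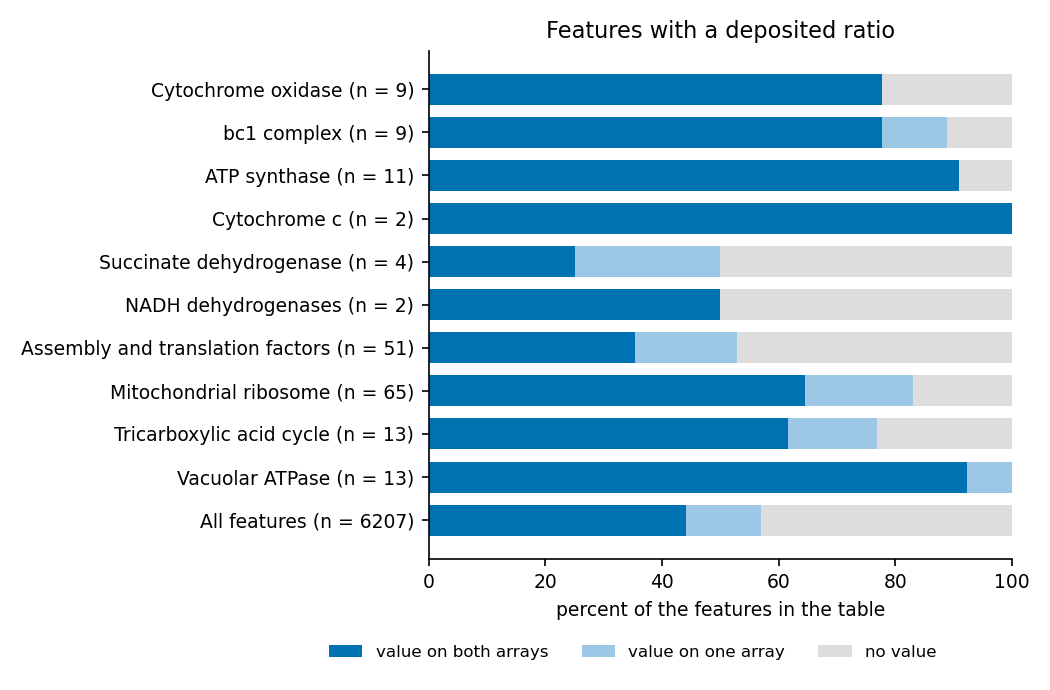
Percent of the features of each list (x axis, n on the y axis) with a ratio on both arrays, on 1 array or on none. The ATP synthase is covered for 10 of 11 genes on both arrays and succinate dehydrogenase for 1 of 4, against 44.1% of all features.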

How the data were processed

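cDNA of total RNA from treated and untreated cells carried Cy5 or Cy3 and shared 2-colour arrays, dyes being exchanged between arrays, per the labels' protocols, which speak of 4 arrays and 2 cultures; 2 arrays were analysed here. The deposited table holds 1 log2 ratio per feature and array; the log2 scale was read from the values. No source used here gives the scanner, background correction, normalization, channel order or the filter behind empty cells, and intensities were not used. The 2 control features were left out.

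The ratios were used as deposited. limma 3.58.1 (lmFit, eBayes; R 4.3.3) tested each mean of both arrays against 0 over all 2738 features with both ratios, two-sided, with Benjamini-Hochberg adjustment over all of them and a threshold of 0.05; the procedure was tested on simulated data. The labels' replicate numbers name the arrays. Complexes were compared by medians on each array. Assembly, regulator, cycle and vacuolar genes came from written lists, the cycle list without succinate dehydrogenase. Mitochondrial ribosomal proteins were taken by symbols starting with MRP or RSM, so not every one need be ribosomal. This rule was widened after a narrower version had been computed, whose median lay on the same side of 0. Names follow the R64 gene table, which matched all 37 members and 5654 of 6207 features. Its coordinates served only to look for protein-coding genes that overlap a member, and none was found. Members and lists were chosen with earlier results of these data known. Full statistics are given for the 2 highest and 2 lowest genes of each complex, those past the rule of size, the isoform pairs and the electron-entry genes; from other lists, genes past the rule of size and the HAP genes are named. Alternatives were centring, scaling, quantile normalization, array 1 turned, other limits, robust moderation and each array left out. Python 3.11.15 and matplotlib 3.10.9 drew the figures.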

Additional observations from a re-analysis of the deposited data

How the results depend on the processing

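limma also called 0 members under centring, scaling, quantile normalization, array 1 turned, robust moderation and an adjusted p under 0.10, but 0 of all features were called too, so this says nothing of stability; with 1 array there is no test. Array 1 turned after centring is the reading in which the dyes were fixed, as Cy5 over Cy3. With Cy3 over Cy5 the signs under it would be reversed. In this reading 0 members met the rule of size, and COX5A stood at 0.21, COX5B at 0.27, COX7 at 1.63, COR1 at 0.56, QCR10 at 0.14, ATP1 at −0.38, ATP2 at −1.31, ATP15 at 0.48, SDH3 at 0.28, HAP1 at −0.61, COX23 at 1.41, CBP1 at 0.0028, ACO1 at −0.40, LPD1 at −0.27 and VMA1 at −0.22, each on the other side of 0. The median of the members was then −0.068 and that of the ATP synthase −0.098. COR1, at −0.016 as deposited, became 0.21 with centring, 0.33 with scaling and 0.13 with quantile normalization. Limits of 1.5-fold and 1.2-fold took 6 members (20.7% of all features), limits of 3-fold and 2-fold took 0 (2.37%), and a 2-fold limit on 1 array took 2 on array 2 (5.66%) and 4 on array 1 (21.1%). Leaving out an array moved the median of the members between −0.13 and −0.061 and that of the ATP synthase between −0.018 and 0.042, so on array 2 alone the ATP synthase median was negative; its mean in place of the median gave 0.23. Leaving out an array moved the median of cytochrome oxidase between −0.50 and −0.072 and that of the bc1 complex between −0.30 and 0.14, where array 1 alone was positive. The mean in place of the median gave −0.59 for cytochrome oxidase, and with array 1 turned the medians were −0.11 for cytochrome oxidase and −0.0043 for the bc1 complex. Why these values changed was not tested. Signal over background is unknown and limits every ratio.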

Other observations

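Among genes that supply the chain's cofactors, haem synthesis lay at 0.16 relative to the median of all features over 4 genes, 2 of them above it on both arrays and 1 below on both. Ubiquinone synthesis lay at −0.16 over 4 genes, with 0 above on both arrays and 2 below on both. The background was 29.3% of all features for above and 29.3% for below. Other enzymes that pass electrons to cytochrome c or ubiquinone or take them from cytochrome c lay at −0.060 over 3 genes. With the sign of array 1 turned, haem synthesis stood at −0.037, ubiquinone synthesis at −0.054 and these other enzymes at 0.11. After Benjamini-Hochberg adjustment limma called 0 genes of these lists and 0% of all features. Without adjustment, 0 of these genes had a limma p under 0.05, against 13.6% of all features. With 3 or 4 genes per list such counts say little.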
